A study of Homo sapiens with 6 samples.

Results

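A group of 10 genes for surface and secreted proteins of squamous epithelium was followed in HSC-3 cells, a widely used line of human oral squamous carcinoma. They were taken by name from the 22941 genes of the count table: LY6D, LY6E, LY6K, LYPD2, LYPD3, PSCA and SLURP1 of the LY6 family, and CEACAM1, CEACAM5 and CEACAM6 of the carcinoembryonic antigen family. All 10 had a row, and 9 had enough reads to be tested; SLURP1 did not. The cells were unmodified and kept either at normal gravity or in the Rotary Cell Culture System, whose slowly turning vessel simulates microgravity, with 3 libraries labelled as biological replicates in each group. The comparison asks how transcript levels differ between these culture conditions. All libraries come from 1 cell line. Neither the time in rotation nor the vessel of the normal gravity cultures is stated in the labels.

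LY6 proteins share a small, disulfide-bonded fold with the urokinase receptor, and most are held on the outer cell surface by a lipid (GPI) anchor, whereas SLURP1 is secreted. CEACAM proteins are immunoglobulin-type adhesion molecules. CEACAM5 and CEACAM6 carry a GPI anchor, and CEACAM1 crosses the membrane and signals through its cytoplasmic tail. In stratified epithelium several of these proteins are known from the layers above the basal cells, and CEACAM5, CEACAM6, PSCA and LY6K have been studied as tumour antigens.

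Between 34264008 and 38861233 reads were counted per library. Levels are in CPM, the reads of a gene as a share of its library's TMM-scaled total, and group levels are means ± SD (n = 3). A positive log2 fold change means a higher level in simulated microgravity, and each is a change against the rest of the library's transcripts. In bulk RNA, fewer cells with a transcript and less of it per cell cannot be told apart. Normal gravity replicate 3 stood apart from the other libraries of its group on the second principal component (-55.9, against 17.6 and 36.3). All 8 markers of squamous epithelium were detected, with a summed level of 11299.9 to 19769 CPM in normal gravity and 4757 to 5763 CPM in simulated microgravity. Within that list the basal keratin KRT5 fell from 9712 ± 2675 to 1011 ± 245 CPM, and KRT14 and TP63 also fell. The keratin KRT17, the cadherins CDH1 and DSG3, and EPCAM rose, and KRT6A did not pass the test. Of other cell types, 6 of 6 fibroblast markers summed to 11.7 to 29.8 and 17.8 to 18.9 CPM, and 5 of 5 endothelial markers to 1.60 to 5.84 and 2.35 to 3.57 CPM, in the order normal gravity and simulated microgravity. LUM and KDR were at 0 in the normal gravity libraries. The 5 leukocyte markers matched of 6 summed to 32.0 to 38.7 and 77.4 to 109 CPM, of which CD14 alone gave 28.7 ± 2.00 and 89.0 ± 16.7 CPM. The defining leukocyte gene PTPRC never exceeded 0.186 CPM. Of 3 leukocyte markers tested, CD14 rose, ITGAM fell from 5.41 ± 1.42 to 1.53 ± 0.173 CPM, and LYZ did not pass. Only 2 of 6 salivary gland markers were matched, and they summed to at most 0.287 CPM. The part of these markers in the results that follow was not tested.

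The CEACAM genes and PSCA had much higher levels in simulated microgravity, and LY6E had the lower level there. Of the 9 genes tested, 6 rose (PSCA, LY6K, LYPD2, CEACAM1, CEACAM5 and CEACAM6), 1 fell (LY6E), and LY6D and LYPD3 did not pass. Among all 14736 tested genes 57.6% changed, 28.2% higher and 29.3% lower. The log2 fold change was at least 5 for 5 of the 9, against 2.2% of all tested genes, a limit chosen after the values were seen. Of those 5, LYPD2, CEACAM1, CEACAM5 and CEACAM6 had under 10 reads in some normal gravity library and passed the filter on low counts only through their high group, so their count is a description. Groups did not overlap for 6 genes in the higher direction (background 33.0%) and for 1 in the lower (background 33.3%), against 66.3% of all tested genes in either direction. LYPD2, CEACAM1, CEACAM5 and CEACAM6 are also among the 6 that rose and the 6 without overlap, so those counts are descriptions too.

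**Figure D1:**
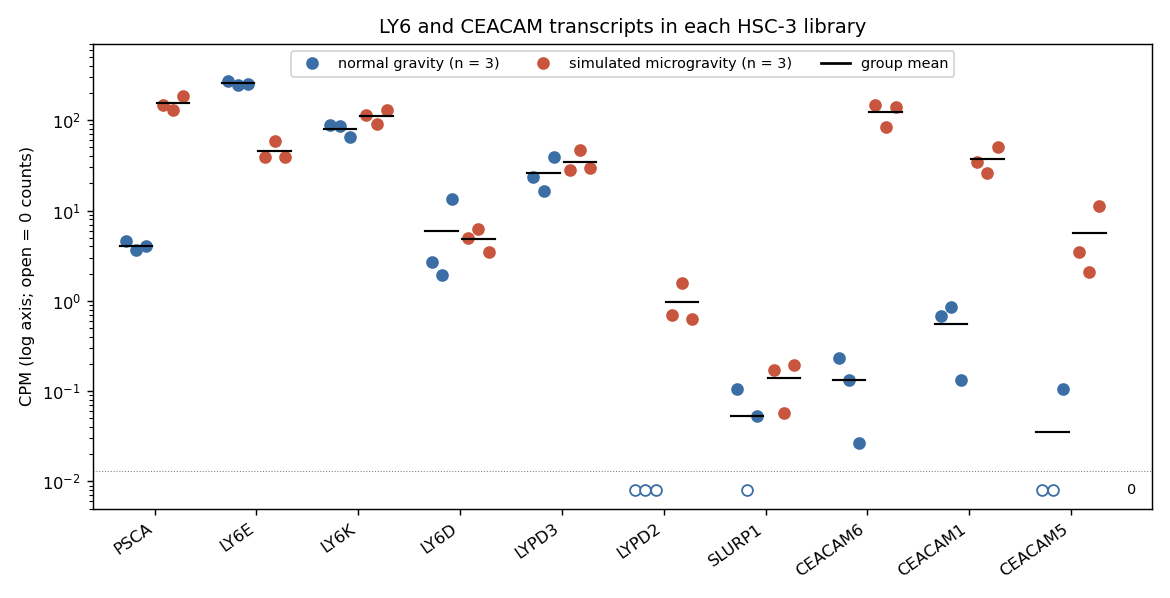
Normalised level (CPM, log axis) of each LY6 and CEACAM gene in the 3 normal gravity libraries (blue) and the 3 simulated microgravity libraries (red). Points are libraries, bars are group means and open points are libraries with 0 counts. PSCA, CEACAM1, CEACAM5 and CEACAM6 lie far apart between groups, LY6E is lower in every simulated microgravity library, and the groups of LY6D and LYPD3 overlap.

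The CEACAM genes had few or no reads in normal gravity and many in simulated microgravity. CEACAM6, a GPI-anchored adhesion protein of epithelia and granulocytes, was at 0.235, 0.133 and 0.0266 CPM in normal gravity replicates 1, 2 and 3, from 9, 5 and 1 reads. In simulated microgravity it was at 146.7, 84.0 and 139 CPM. Every library of the second group was far above every library of the first, and the mean rose from 0.132 ± 0.104 to 123 ± 34.3 CPM, a log2 fold change of 9.83 (SE 0.44, edgeR adjusted p = 5.16e-06). By fitted log2 fold change it ranked 27 of 14736 tested genes. The ratio of pooled reads was 933, with a 95% counting interval from 566 to 1668 that covers counting error only.

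CEACAM1, the member with a signalling tail that recruits tyrosine phosphatases, was at 0.680, 0.852 and 0.133 CPM in normal gravity. The simulated microgravity libraries had 34.5, 25.9 and 50.7 CPM. The groups lay well apart (log2 fold change 6.05, SE 0.53, edgeR adjusted p = 6.81e-05), and the mean was 66.7 times higher. CEACAM5, the carcinoembryonic antigen used as a serum tumour marker, had 0, 0 and 4 reads in normal gravity and 121, 74 and 410 in simulated microgravity. That made 3.48, 2.10 and 11.3 CPM, so the third of these libraries held most of the reads. CEACAM5 rose with a log2 fold change of 7.18 (SE 1.09, edgeR adjusted p = 9.59e-04) and a ratio of pooled reads of 161 (95% counting interval 62.6 to 593). Its fitted value rests on the 4 reads of normal gravity replicate 3: without that library no read was left in the group and the fitted value was 10.68, which depends on the prior count and is no bound.

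Reads of these related genes could in principle be split uncertainly. In GENCODE release 29 transcripts, no window of 150 bases, the labelled read length, was shared among the 10 genes. CEACAM5 shared 10.7% of its windows with the locus AC243967.1, and CEACAM6 shared 1 window with it. Only identical windows were sought, so the search does not cover reads placed with mismatches or reads shorter than 150 bases. Overlapping transcripts are a further limit, because no source used here states whether strand was used in counting. In RefSeq CEACAM1 overlaps LIPE-AS1, which had 12, 0 and 8 reads in normal gravity and 374, 244 and 368 in simulated microgravity. It also overlaps LOC105372407, with 0, 1 and 1 against 73, 63 and 83 reads. CEACAM6 overlaps LOC112268252, which had no read in normal gravity and 6, 1 and 14 in simulated microgravity. Reads of CEACAM1 itself were more numerous, at 1202, 913 and 1843 in simulated microgravity.

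The promoters of the CEACAM genes, which rose together, are shown with that of LYPD3, the other member on chromosome 19, which did not pass the test. Each sequence is the 250 bases before the RefSeq start of the gene (GRCh38.p14), 5′ to 3′ on the strand of the gene. The regions are chr19:41708376-41708625 (plus strand) for CEACAM5, chr19:41755280-41755529 (plus) for CEACAM6, chr19:42528482-42528731 (minus) for CEACAM1 and chr19:43465609-43465858 (minus) for LYPD3. Capitals mark matches to the E-box motif CACGTG, the GC box motif GGGCGG, the motif TGANTCA of AP-1 factors and the core promoter motif TATAAA, searched on both strands.
CEACAM5: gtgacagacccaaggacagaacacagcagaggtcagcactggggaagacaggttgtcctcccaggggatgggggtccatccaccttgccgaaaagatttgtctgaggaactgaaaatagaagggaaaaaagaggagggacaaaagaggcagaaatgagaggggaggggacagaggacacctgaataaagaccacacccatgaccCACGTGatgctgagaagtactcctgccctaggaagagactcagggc
CEACAM6: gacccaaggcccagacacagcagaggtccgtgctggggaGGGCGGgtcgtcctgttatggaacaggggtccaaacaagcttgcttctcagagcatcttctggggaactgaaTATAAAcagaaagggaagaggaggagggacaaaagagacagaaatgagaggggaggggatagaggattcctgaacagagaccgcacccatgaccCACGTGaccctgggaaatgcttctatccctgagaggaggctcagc
CEACAM1: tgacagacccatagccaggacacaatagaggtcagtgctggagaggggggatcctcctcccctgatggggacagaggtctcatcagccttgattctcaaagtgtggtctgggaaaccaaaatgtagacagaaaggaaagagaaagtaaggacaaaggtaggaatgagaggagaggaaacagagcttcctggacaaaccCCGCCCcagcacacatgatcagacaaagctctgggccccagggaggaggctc
LYPD3: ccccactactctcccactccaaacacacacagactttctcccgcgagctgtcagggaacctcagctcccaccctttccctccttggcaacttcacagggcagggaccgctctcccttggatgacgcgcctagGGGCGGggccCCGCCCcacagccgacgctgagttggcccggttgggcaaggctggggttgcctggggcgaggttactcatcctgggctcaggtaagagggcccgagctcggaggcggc
CEACAM5 and CEACAM6 were identical at 73.6% of 258 aligned columns, CEACAM6 and CEACAM1 at 67.6% of 262, and CEACAM5 and CEACAM1 at 63.5% of 263. Against LYPD3 the 3 CEACAM promoters had 42.2% to 43.7% identity, and LYPD3 had the higher GC content (66.4%, against 53.2% to 55.2%). CEACAM5 and CEACAM6 each held a CACGTG, ending 41 and 40 bases before the start, and this motif occurs in 6.34% of 35116 promoter windows of this length. GGGCGG or its complement was in CEACAM6, CEACAM1 and LYPD3 and is in 42.6% of windows. TATAAA was in CEACAM6 alone of the 4 (10.7% of windows), with its last base 134 bases before the start, and TGANTCA (6.57% of windows) was in none. The 4 motifs do not overlap one another in these sequences. A match describes letters in the window and is not a measured binding site.

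PSCA, a GPI-anchored glycoprotein first described in prostate and present in several stratified epithelia, was the LY6 gene with the smallest adjusted p. It was at 4.55, 3.65 and 4.06 CPM in normal gravity and at 147, 129.8 and 184 CPM in simulated microgravity. Libraries within each group were close together, with a highest level 1.25 and 1.41 times the lowest. The mean rose 37.5-fold (log2 fold change 5.23, SE 0.18, edgeR adjusted p = 7.57e-07). Unlike the CEACAM genes it was clearly detected in both groups, from 464 and 16373 reads.

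LY6E, an interferon-inducible GPI-anchored protein known to restrain entry of some viruses, went the other way. Its level was 271, 244 and 252 CPM in normal gravity and 39.5, 59.1 and 39.7 CPM in simulated microgravity. It was lower in each simulated microgravity library than in any normal gravity library. The mean fell from 256 ± 13.9 to 46.1 ± 11.3 CPM, or 5.55-fold (log2 fold change -2.47, SE 0.17, edgeR adjusted p = 1.57e-05). LY6E was the only one of the 9 tested genes to fall.

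LY6K, a GPI-anchored antigen of testis and of several carcinomas, changed little. It was at 89.4, 87.1 and 65.3 CPM in normal gravity and at 114, 91.4 and 129.0 CPM in simulated microgravity. The groups did not overlap, but simulated microgravity replicate 2 was only just above normal gravity replicate 1. The rise was 1.38-fold (log2 fold change 0.47, SE 0.16, edgeR adjusted p = 0.0371). The call ended without simulated microgravity replicate 1 (adjusted p = 0.102) or replicate 3 (adjusted p = 0.141), and adjusted p was 0.0191 to 0.141 over all alternatives. LY6K overlaps the non-coding LNCOC1, which had at most 29 reads in a library.

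LYPD2, a little-studied GPI-anchored LY6 protein, had no read in the normal gravity libraries. It had 24, 56 and 23 reads in simulated microgravity, or 0.689, 1.59 and 0.632 CPM. Against a floor of 3 reads over the normal gravity group (0.0264 CPM) the level was at least 36.6-fold higher, a log2 difference of at least 5.19 (edgeR adjusted p = 0.00116). The fitted value of 8.16 depends on the prior count and is no bound. SLURP1, the secreted LY6 protein that acts on nicotinic receptors of keratinocytes and whose loss causes a palmoplantar keratoderma, had 4, 0 and 2 reads in normal gravity and 6, 2 and 7 in simulated microgravity. The groups overlapped. The ratio of pooled reads was 2.66, with a 95% counting interval from 0.977 to 8.38, so a difference was not detectable at this depth.

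LY6D and LYPD3, markers of keratinocytes in stratified epithelium, did not pass the test, and both were highest of their group in normal gravity replicate 3. LY6D, a keratinocyte antigen linked to cell adhesion, was at 2.67, 1.92 and 13.4 CPM in normal gravity and at 4.97, 6.21 and 3.49 CPM in simulated microgravity. Normal gravity replicate 3 exceeded the other 5 libraries, and the remaining normal gravity libraries lay below all of simulated microgravity. The log2 fold change was -0.30 (SE 0.69, edgeR adjusted p = 0.735). Without normal gravity replicate 3 it was 1.09, with an adjusted p of 0.0103. The sign was also positive with limma-voom (0.21, adjusted p = 0.803).

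LYPD3, a homologue of the urokinase receptor found above the basal layer, was at 23.4, 16.6 and 38.8 CPM in normal gravity. In simulated microgravity it was at 28.2, 47.2 and 29.3 CPM. The groups overlapped through normal gravity replicate 3, with a log2 fold change of 0.41 (SE 0.33, edgeR adjusted p = 0.315). Leaving that library out gave 0.81 and an adjusted p of 0.0212. With it left out, 8 of the 9 tested genes were called higher and 1 lower. Calls over all genes then numbered 9555 of 15218 tested, 50.6% of them higher. In the main fit they numbered 8482 of 14736, 49.0% of them higher, so calls became more frequent among genes in general.

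**Figure D2:**
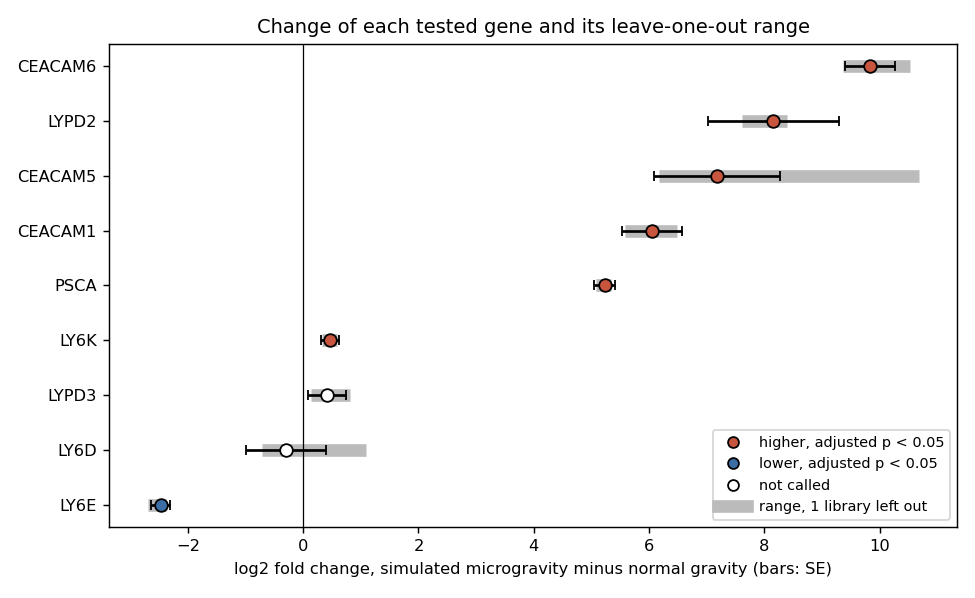
Fitted log2 fold change (simulated microgravity minus normal gravity) of the 9 tested genes, with SE as black bars and the range over the 6 fits that leave out 1 library as grey bands. The band of LY6D runs from -0.72 to 1.09 and crosses 0, that of CEACAM5 reaches 10.68, and those of PSCA (5.08 to 5.33) and LY6E (-2.69 to -2.37) are narrow.

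Scaled by exon length (union of GENCODE release 29 exons), so that genes can be set side by side, the make-up of the group differed between conditions. LY6E led in normal gravity with 96.9 ± 5.27 CPM per kb, 72.6% ± 2.98 of the summed level of the 10 genes. Next were LY6K (19.9 ± 3.28 CPM per kb) and LYPD3 (10.4 ± 4.52 CPM per kb). LY6D (3.87 ± 4.15 CPM per kb) was below LYPD3 in each normal gravity library. Against PSCA (2.32 ± 0.257 CPM per kb) LY6D was lower in replicates 1 and 2 and higher in replicate 3, so their order is not settled. The remaining genes were far lower, from CEACAM1 (0.1005 CPM per kb) and SLURP1 (0.0979) to CEACAM6 (0.0432), CEACAM5 (0.0106) and LYPD2 (0). PSCA led in simulated microgravity with 87.0 ± 15.6 CPM per kb, 43.4% ± 2.60 of the sum. It was followed by CEACAM6 (40.4 ± 11.2 CPM per kb) and LY6K (27.5 ± 4.67 CPM per kb). The spreads of CEACAM6 and LY6K overlap, but CEACAM6 was the higher in each simulated microgravity library. LY6E (17.5 ± 4.27 CPM per kb) was above LYPD3 (13.8 ± 4.23 CPM per kb) in each simulated microgravity library, though their spreads overlap. CEACAM1 was at 6.70 ± 2.28, LY6D at 3.15 ± 0.875, CEACAM5 at 1.68 ± 1.48, LYPD2 at 1.63 ± 0.901 and SLURP1 at 0.262 ± 0.136 CPM per kb. The CEACAM genes together made up 0.117% ± 0.0612 of the length-scaled sum in normal gravity and 24.2% ± 4.97 in simulated microgravity. Summed over the 7 LY6 genes the level was 134 ± 8.38 and 151 ± 13.4 CPM per kb.

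**Figure D3:**
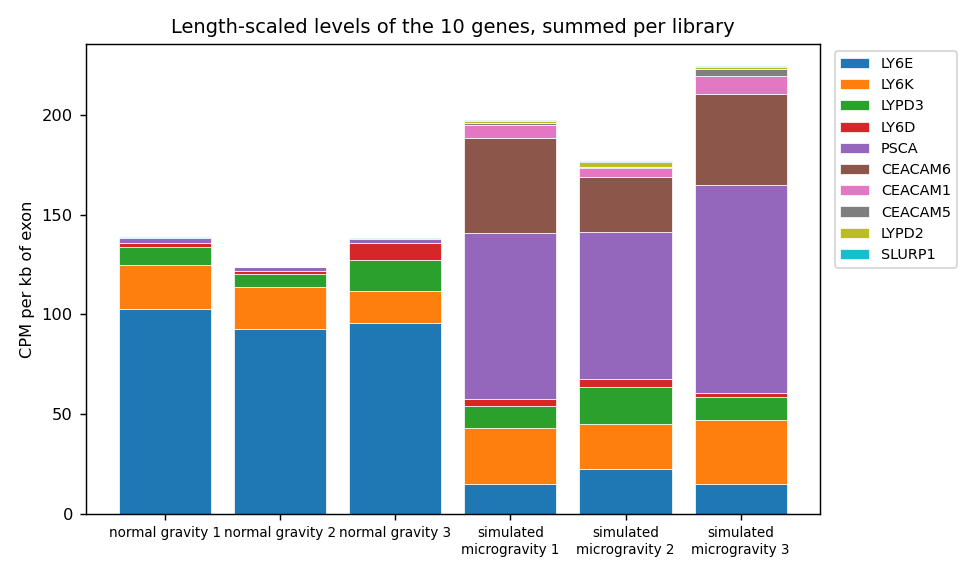
Stacked length-scaled levels (CPM per kb of exon) of the 10 genes in each library. LY6E fills most of each normal gravity bar, and PSCA and CEACAM6 fill most of each simulated microgravity bar.

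Which library was highest in its group differed between the genes. In simulated microgravity all 10 genes had at least 10 reads over the group. Replicate 2 of that group was the highest library for LY6D, LY6E, LYPD3 and LYPD2 and the lowest for the other 6 genes, CEACAM1, CEACAM5, CEACAM6, PSCA, LY6K and SLURP1 (from 2 reads). Over all tested genes that library was the highest of its group for 35.3% and the lowest for 37.2%. In normal gravity 7 genes had at least 10 reads over the group. Replicate 3 was the highest for LY6D and LYPD3 and the lowest for LY6K, CEACAM1 and CEACAM6, against 41.5% and 41.4% of all tested genes. On the log2 scale LY6D in that library lay 1.71 above its group mean, while CEACAM1 lay -1.60 and CEACAM6 -1.51 from theirs, the last from 1 read.

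**Figure D4:**
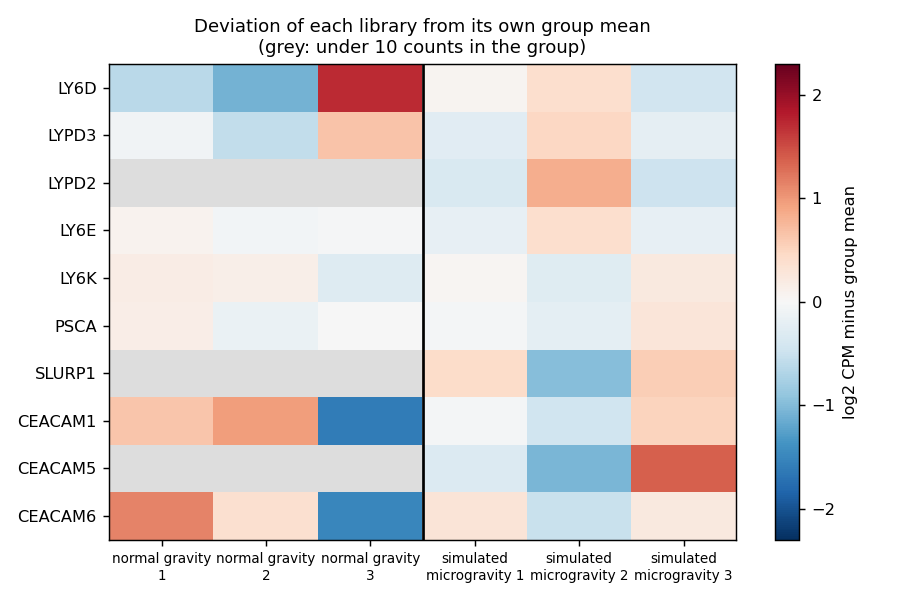
Difference of each library from the mean of its own group (log2 CPM, prior count 0.5) for the 10 genes. LY6D and LYPD3 are raised in normal gravity replicate 3 (1.71 and 0.65), where CEACAM1 and CEACAM6 are low, and simulated microgravity replicate 2 is high for the upper 4 genes and low for the lower 6.

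Most of the LY6 genes described lie in a cluster on chromosome 8, and the CEACAM genes lie in a cluster on chromosome 19. Coordinates are from RefSeq on GRCh38.p14, and the submitters' processing notes name hg38. The chromosome 8 cluster runs 352 kb from PSCA (142670297 to 142682725) through LY6K, SLURP1, LYPD2 and LY6D to LY6E (143018529 to 143022409). Neighbours within it moved in different directions: PSCA and LYPD2 rose, LY6D did not pass and LY6E fell. Of 3 other genes tested there, THEM6 (log2 fold change -0.04, SE 0.15) and LNCOC1 (-0.999, SE 0.51) did not pass. LY6E-DT, a transcript that diverges from the LY6E promoter, fell with a log2 fold change of -4.62 (SE 0.70, edgeR adjusted p = 6.64e-04), from 114 to 4 reads over the group. It was named after its values were seen.

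The chromosome 19 cluster runs 820 kb from CEACAM5 (41708626 to 41730519) and CEACAM6 (41755530 to 41772211) to CEACAM1 (42507306 to 42528481). Of 21 other tested genes within this span 10 rose and 6 fell, where 28.2% of all tested genes rose and 29.3% fell. Their median log2 fold change was 0.20 against -0.01 over all tested genes. CNFN, the cornified envelope protein cornifelin, rose from 0.615 ± 0.441 to 206 ± 34.9 CPM, a log2 fold change of 8.38 (SE 0.48). Rises were also found for CD79A, ARHGEF1, POU2F2, DEDD2, GSK3A, LIPE and CXCL17, with log2 fold changes from 0.51 (ARHGEF1) to 3.69 (CXCL17). The other 2 rises were of transcripts named only by locus numbers. Among these, LOC105372407 lies inside CEACAM1, and strand use in counting is not known. CD79A and CXCL17 had 8 and 5 reads over the normal gravity group, and the locus-number transcripts had 8 and 2. All of these passed the filter on low counts only through their high group, so the count of rises is a description. With 1 library left out, the fitted value of CD79A ran from 2.77 to 5.46 (the last without normal gravity replicate 1), and its call was lost without simulated microgravity replicate 3 (edgeR adjusted p = 0.0508). That of CXCL17 ran from 3.12 to 7.48, the last without normal gravity replicate 3, which held all of its normal gravity reads. RPS19, a ribosomal protein gene with processed pseudogenes that could share its reads, fell from 395 ± 47.7 to 174 ± 17.3 CPM, and GRIK5, ERF, PAFAH1B3 and TMEM145 were also among those that fell. The call of ERF (log2 fold change -0.32) was lost in 8 of 13 alternatives and that of GRIK5 in 3. That of TMEM145 was lost in 5 of the fewer alternatives that tested it, since it was not tested with CPM above 1 in at least 3 libraries. RABAC1, ZNF574, ZNF526, CIC and PRR19 did not pass. LYPD3 (43460787 to 43465608) lies farther along the chromosome.

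**Figure D5:**
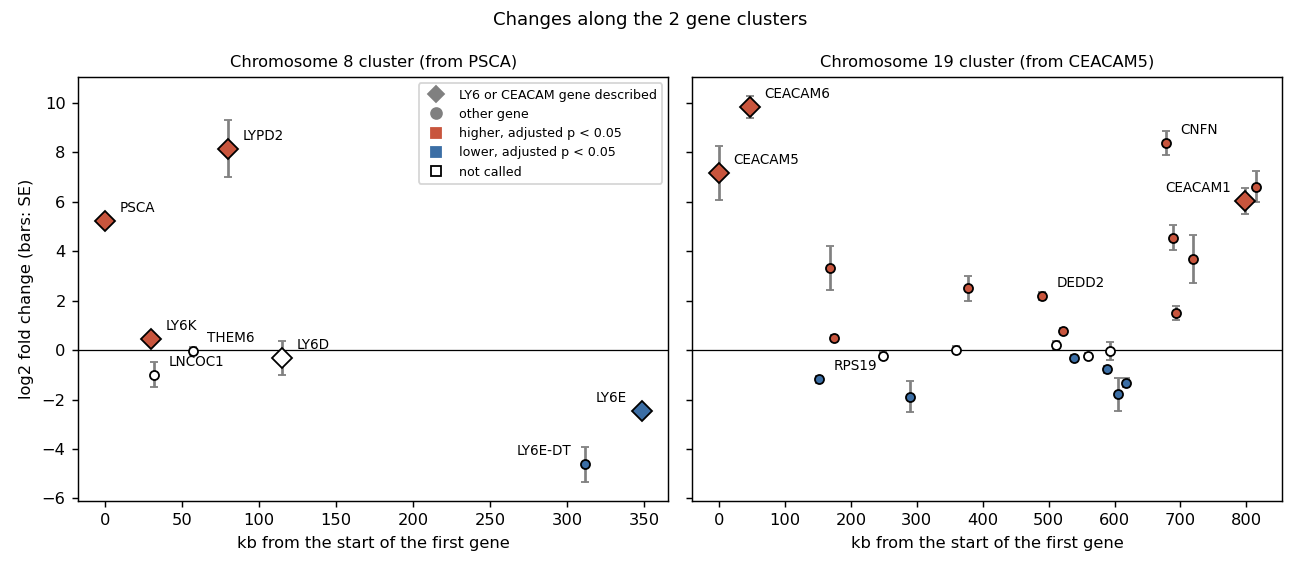
Log2 fold change (SE as bars) of each tested gene against its distance in kb from the start of the first gene of the chromosome 8 cluster (left) and the chromosome 19 cluster (right). Red is higher, blue is lower and white is not called. The CEACAM genes sit at 7.18, 9.83 and 6.05 at the ends of a cluster whose other genes went both ways, and LY6E and LY6E-DT are the genes called lower on chromosome 8.

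Of 16 other genes of the LY6 and urokinase receptor family that were matched, 11 were tested, of which 4 rose (36.4%, background 28.2%) and 4 fell (36.4%, background 29.3%). These shares were near the background, and the median log2 fold change was 0.15. PLAUR, the urokinase receptor, led the rises by adjusted p (log2 fold change 3.14, SE 0.20), and CD59, LYPD5 and LY6G6C rose with it. LYPD6B, an LY6 protein that modulates nicotinic receptors, led the falls by adjusted p, from 2.09 ± 0.197 to 0.198 ± 0.103 CPM (log2 fold change -3.38, SE 0.46). LYPD1, LYPD6 and PINLYP also fell. Of 11 matched CEACAM and pregnancy-specific glycoprotein genes outside the group only CEACAM19 was tested, and it rose from 8.50 ± 1.40 to 16.5 ± 1.53 CPM, a log2 fold change of 0.95 (SE 0.18, edgeR adjusted p = 0.00193). CD59, LYPD5, LY6G6C, LYPD1, LYPD6 and PINLYP were named after their values were seen.

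The GPI anchor of most of these proteins is built, attached and remodelled by a set of enzymes in the endoplasmic reticulum and Golgi. Of 30 tested genes of this list 3 rose (10.0%, background 28.2%), 10 fell (33.3%, background 29.3%) and 17 did not pass, with a median log2 fold change of -0.12 (-0.01 over all tested genes). The share that fell was near the background. PIGQ, a subunit of the enzyme that starts anchor synthesis, rose from 15.5 ± 0.990 to 35.1 ± 4.09 CPM, a log2 fold change of 1.18 (SE 0.14). PGAP4, which adds a sugar side branch to the anchor, fell from 32.3 ± 2.21 to 9.48 ± 2.24 CPM, a log2 fold change of -1.77 (SE 0.19). Of the transamidase subunits, which join anchor and protein, PIGK, PIGT and PIGU fell and GPAA1 and PIGS did not pass (log2 fold changes -0.15 and 0.00). These subunits were named after their values were seen. Without normal gravity replicate 3 the list had 5 rises, and calls over all genes also became more numerous (9555 of 15218 tested, 50.6% of them higher).

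Genes of reported partners were also measured. Of 9 matched nicotinic receptor subunits, through which SLURP1 and several LY6 proteins are known to act, 3 were tested. CHRNB1, the muscle-type beta subunit, rose from 14.7 ± 3.27 to 60.6 ± 21.0 CPM, a log2 fold change of 2.04 (SE 0.29), and CHRNA10 also rose. CHRNA5 fell from 2.47 ± 1.21 to 0.312 ± 0.163 CPM, a log2 fold change of -2.97 (SE 0.59). Of 10 tested partners of CEACAM1 and LYPD3, 4 rose (40.0%, background 28.2%) and 3 fell (30.0%, background 29.3%), with a median log2 fold change of 0.16, so the counts were few and the share that fell was near the background. LGALS3, galectin-3, a lectin that binds glycoproteins of the cell surface, rose from 153 ± 18.1 to 981 ± 189 CPM, a log2 fold change of 2.68 (SE 0.18). AGR2, a secreted disulfide isomerase reported to bind LYPD3, rose from 2.53 ± 1.47 to 12.7 ± 3.03 CPM. PTPN6, a phosphatase recruited by the CEACAM1 tail, rose from 47.0 ± 4.94 to 72.5 ± 6.93 CPM, and PTPN11 did not pass (log2 fold change -0.16). FLNA, the actin crosslinker filamin A, fell from 1990 ± 213 to 469 ± 77.9 CPM, a log2 fold change of -2.08 (SE 0.16). ITGA6 (log2 fold change -0.80) and MMP14 (-0.72) were the other partners that fell, and LYN (0.81) was the other that rose. AGR2, PTPN6, PTPN11, ITGA6, MMP14, LYN and CHRNA10 were named after their values were seen.

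For each tested gene the closest profile among all other tested genes was found by the root mean square difference of log2 CPM (prior count 0.5) over the 6 libraries, each profile centred on its normal gravity mean. PSCA was closest to TTC9 (difference 0.108), which went from 7.80 ± 0.842 to 287 ± 60.3 CPM. LY6E was closest to EVL (0.113), LY6K to AARS1 (0.0546) and LYPD3 to DCST2 (0.125). LY6D was closest to GSTA4 (0.222), whose normal gravity level also had a wide spread (9.44 ± 8.75 CPM). CEACAM6 was closest to SPRR2E (0.338), a small proline-rich cornified envelope precursor with near-identical copies, at 0.140 ± 0.108 and 154 ± 42.1 CPM. LYPD2 was closest to CRNN (0.298), the squamous epithelial protein cornulin, which also had no read in normal gravity. CEACAM1 was closest to LOC100128653 (0.371) and CEACAM5 to CPXM2 (0.735). Within the group the closest pair was LY6D and LYPD3, at 0.582, and CEACAM6 lay 2.66 from its nearest, CEACAM1. With 6 libraries in 2 groups these values are descriptions only.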

How the data were processed

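The 6 RNA-seq libraries were assigned to normal gravity (3) or simulated microgravity (3) by sample title. The authors deposited 1 table of raw gene counts for the 6 libraries. Per the labels' protocols, RNA was extracted with TRIzol and paired-end reads of 150 bases were sequenced. The submitters' processing notes list HTSeq, HISAT, fastp, DESeq2 and R 3.2.0, and the build hg38, with no roles. The annotation and strand use in counting were not given in the sources used here. Table columns are headed by a group abbreviation with a replicate number. The rotary group's name is in the treatment protocol, and the other was taken as normal gravity.

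Genes were filtered with filterByExpr (minimum count 10, 14736 of 22941 left), scaled by TMM and tested with edgeR 4.0.16 (quasi-likelihood F-test, robust, R 4.3.3), with Benjamini-Hochberg adjustment over all tested genes and a threshold of 0.05. Each SE is the absolute log2 fold change over the root of F. The test was tested on simulated counts. Libraries of a group differed well beyond sampling noise (chi-square over its degrees of freedom 17.9 to 142), so each counted as 1 sample. The labels call them biological replicates without saying how cultures were separated. The p-values therefore measure only the spread between these samples, which may be technical. Counting intervals are exact binomial. Reads carry no molecular identifiers, so intervals and floors cover counting error only.

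The genes and lists were chosen with earlier results of these data known. Named genes are the 10 members, the gene with the smallest adjusted p per direction of each list, the tested neighbours with a symbol of their own and the closest profile of each member; 1 neighbour is not reported here. Lists were matched by symbol, and entries without a match were not analysed here. Of the promoter sequences, 4 members were matched (RefSeq, GRCh38.p14). Alternatives tried were limma-voom (limma 3.58.1), the DESeq2 1.42.0 Wald test, its size factors in edgeR, no TMM scaling, no filter, a CPM filter, a replicate block and each library left out in turn.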

Additional observations from a re-analysis of the deposited data

How the results depend on the processing

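Calls of PSCA, LY6E, CEACAM1, CEACAM5 and CEACAM6 held in all 13 alternatives, and that of LYPD2 in the 12 that tested it (it was not tested with CPM above 1 in at least 3 libraries). Leaving out 1 library at a time, log2 fold changes were 5.08 to 5.33 (PSCA), -2.69 to -2.37 (LY6E), 5.59 to 6.49 (CEACAM1), 6.17 to 10.68 (CEACAM5), 9.36 to 10.52 (CEACAM6), 7.62 to 8.39 (LYPD2), 0.34 to 0.59 (LY6K), 0.13 to 0.81 (LYPD3) and -0.72 to 1.09 (LY6D). Members called higher numbered 5 to 8 and lower 1; calls over all genes numbered 6938 to 9555. LY6D changed sign with limma-voom (0.21), the replicate block (0.25) and without normal gravity replicate 3 (1.09).

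Replicate numbers did not pair the libraries: deviations of same-numbered libraries correlated at 0.0494, -0.0437 and -0.0169. With the replicate block LY6K had a log2 fold change of 0.46 (adjusted p = 0.07), members called higher numbered 5, and calls over all genes 7860.

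Counts of small lists moved most. With CPM above 1 in at least 3 libraries, the other LY6 family genes had 2 falls, the nicotinic subunits 1 rise, and the chromosome 8 neighbours 0 calls because LY6E-DT was not tested. Without a filter the other CEACAM genes had 4 rises and the nicotinic subunits 4, and SLURP1 was tested but not called. Leaving out libraries gave 1 to 3 rises for the other CEACAM genes, 2 to 5 rises and 7 to 10 falls for the GPI list, and 2 to 3 rises for the nicotinic subunits. Other scalings moved the median of all genes by under 0.1.

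Of 39 other named genes, calls were lost in 20 of 502 values, which include those of genes not called in the main fit. Named genes that changed sign had values near 0 or a wide spread. Without normal gravity replicate 3, DCST2 was called higher (log2 fold change 0.90, edgeR adjusted p = 0.0271). So was GSTA4 (0.818, edgeR adjusted p = 0.0175), against -0.272 in the main fit. GSTA4 was positive with limma-voom (0.136) and the replicate block (0.14). With 1 library left out, log2 fold changes spanned -0.685 to 0.818 for GSTA4, -0.196 to 0.191 for PRR19, -0.180 to 0.0438 for THEM6 and -0.0189 to 0.0705 for ZNF574. The cause of these differences was not tested. Depth limits SLURP1, LYPD2 and CEACAM5, and the normal gravity levels of CEACAM1 and CEACAM6.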

Other observations

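Several relatives of the CEACAM genes had too few reads to be tested. PSG7, a pregnancy-specific glycoprotein of the same gene superfamily, had 0 counts in normal gravity and 1.03, 0.623 and 0.247 CPM in simulated microgravity. PSG4 was at 0.373, 0.0850 and 0.385 CPM and CEACAM3, a granulocyte receptor, at 0.287, 0.0567 and 0.0275 CPM in simulated microgravity, and both had 0 counts in normal gravity. CEACAM20 had 1 read in normal gravity replicate 1 and 8 in simulated microgravity replicate 1, and none in the other libraries. PSG9 was detected in all 6 libraries, at 0.240 to 0.266 CPM in normal gravity and 0.0287 to 0.605 CPM in simulated microgravity. The pregnancy-specific genes resemble each other closely, and how their reads were divided is uncertain. Among nicotinic subunits that were not tested, CHRNA9 had 0 counts in normal gravity and 0.172, 0.312 and 0.137 CPM in simulated microgravity. All of these genes were named after their values were seen.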
